A study of Mus musculus with 8 samples.

Results

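Resident macrophage identity genes are genes that mature tissue macrophages express and that are used to tell them from newly arrived monocytes. The set described here holds 10 such genes, taken by symbol from the 24421 genes of the table: Mrc1, Folr2, Fcrls, Slco2b1, Cbr2, Entpd1, Rnase4, Maf, Siglec1 and Adgre1. All 10 were present in the table, and all 10 had at least 1 CPM (read counts scaled to the library's total) in at least 2 libraries, which was the filter of the test. The cells were mouse bone marrow-derived macrophages of the Rbpj knockout (Rbpj f/f;LysMCre) and of wild type. LysMCre drives the recombinase from the lysozyme gene, which myeloid cells express, so the deletion is restricted to that lineage. The 4 groups were knockout after 2 days with TNF at 40 ng/ml, knockout at day 0 without TNF, wild type after the same 2 days with TNF, and wild type at day 0. Each group had 2 libraries, numbered 1 and 2, and the series states 2 independent experiments. The study has no culture held for 2 days in the absence of TNF, so the effect of TNF and that of time in culture cannot be told apart, and a TNF response named below covers both. Strain, age, sex and the number of mice behind a library are not given in the labels.

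Macrophages take their identity from the lineage factor PU.1 together with factors such as Maf, and carry surface receptors for uptake, binding of sialic acid, adhesion and breakdown of extracellular nucleotides. TNF is an inflammatory cytokine that acts on these cells through its receptors and NF-κB. The same bone marrow-derived precursors can turn into osteoclasts, the multinucleated cells that resorb bone. RBP-J is the DNA-binding factor of the Notch pathway and is known as a brake on TNF-driven osteoclast formation in such cells.

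Depth ran from 9855859 to 35653203 reads counted in genes, and each library held reads of 14491 to 15773 genes. The targeted gene Rbpj had 30.0 and 21.4 CPM in knockout TNF libraries and 38.9 and 31.8 CPM in knockout day-0 libraries, against 226 and 178 CPM in wild-type TNF libraries and 215 and 216 CPM in wild-type day-0 libraries, so each knockout library lay below each wild-type one. Of the 8 macrophage markers, the M-CSF receptor gene Csf1r had 1785 to 3266 CPM and Cd68 had 827 to 1628 CPM over the libraries. The lysozyme gene Lyz2 was the lowest of the 8, at 7.25 to 102 CPM. Together the 8 summed to between 5450 and 8013 CPM in every library. Of lists that mark other cells, the B lymphoid markers summed to 1.09 to 10.4 CPM and the T and NK markers to 1.94 to 26.5 CPM. The neutrophil markers summed to 63.4 to 1109 CPM, the monocyte markers to 94.7 to 574 CPM and the dendritic cell markers to 173 to 874 CPM. The 8 stromal markers summed to 118 to 180 CPM in the 4 libraries numbered 1 and to 4.13 to 33.3 CPM in the 4 numbered 2.

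RefSeq start sites (build GRCm38.p6) were matched for 7 of the 10 genes, with 12 start sites in all; Maf, Siglec1 and Adgre1 had no entry. The 250 bases before the start are printed for 5 genes, the most upstream start site being used for Slco2b1 and Entpd1, because these 5 had an entry among the genes called lower after TNF in both genotypes. They run 5′ to 3′ on the strand of the gene, and the capitals mark 3 motifs searched on both strands: GAGGAA, the core bound by PU.1; TGCTGA, a core bound by MAF proteins; and TGGGAA, the core bound by RBP-J.
Mrc1 (chr2:14229164-14229413, plus strand): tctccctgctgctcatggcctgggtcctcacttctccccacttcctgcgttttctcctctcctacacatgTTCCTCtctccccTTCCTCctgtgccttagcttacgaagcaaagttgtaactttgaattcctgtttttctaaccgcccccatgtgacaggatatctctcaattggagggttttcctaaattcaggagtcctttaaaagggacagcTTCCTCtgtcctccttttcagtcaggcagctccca
Slco2b1 (chr7:99711341-99711590, minus strand): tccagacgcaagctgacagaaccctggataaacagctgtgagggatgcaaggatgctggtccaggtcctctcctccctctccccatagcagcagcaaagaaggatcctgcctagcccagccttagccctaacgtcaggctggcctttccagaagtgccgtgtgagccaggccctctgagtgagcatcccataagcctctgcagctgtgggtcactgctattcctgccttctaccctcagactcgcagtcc
Fcrls (chr3:87263525-87263774, minus strand): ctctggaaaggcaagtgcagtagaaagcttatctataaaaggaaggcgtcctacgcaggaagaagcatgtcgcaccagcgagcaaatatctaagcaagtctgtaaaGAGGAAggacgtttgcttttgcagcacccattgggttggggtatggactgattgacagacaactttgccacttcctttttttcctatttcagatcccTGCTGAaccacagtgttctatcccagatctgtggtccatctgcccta
Cbr2 (chr11:120732022-120732271, minus strand): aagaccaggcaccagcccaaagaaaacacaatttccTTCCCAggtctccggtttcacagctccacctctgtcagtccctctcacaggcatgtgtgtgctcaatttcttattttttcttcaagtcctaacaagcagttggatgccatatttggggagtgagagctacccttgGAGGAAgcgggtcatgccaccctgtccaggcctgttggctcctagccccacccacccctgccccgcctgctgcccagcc
Entpd1 (chr19:40612116-40612365, plus strand): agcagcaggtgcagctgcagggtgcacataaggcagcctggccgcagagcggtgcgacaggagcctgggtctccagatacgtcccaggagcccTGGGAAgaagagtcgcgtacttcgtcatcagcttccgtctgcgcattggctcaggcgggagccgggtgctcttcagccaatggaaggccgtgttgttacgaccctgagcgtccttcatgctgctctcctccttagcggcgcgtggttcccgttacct
Mrc1 held 3 copies of the PU.1 core, all on the opposite strand, the nearest ending 30 bases before the start. Fcrls held 1 PU.1 core ending 139 bases and 1 MAF core ending 42 bases before the start. Cbr2 held 1 PU.1 core, and 1 RBP-J core ending 209 bases before the start. Entpd1 held 1 RBP-J core ending 152 bases before the start. The upstream Slco2b1 window held no copy of these letters. Among windows not printed, a further Slco2b1 start site held 1 PU.1 core and 1 RBP-J core. The downstream Entpd1 start site held 2 PU.1 cores. Over the 12 member windows, the PU.1 core was found in 5, the RBP-J core in 4 and the MAF core in 3. Over the 32851 RefSeq windows of the same length, the PU.1 core was found in 23.3%, the RBP-J core in 21.6% and the MAF core in 16.1%. TGANTCA, the AP-1 site, was found in 1 of the 12 windows, at Folr2, against 6.75% of all windows. The degenerate NF-κB consensus was found in 0 of the 12, against 7.25% of all windows. Such matches describe letters only and are no evidence of binding.

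After 2 days with TNF, most of the resident macrophage genes fell in both genotypes. In the knockout, 8 of 10 were called lower than at day 0 (limma, adjusted p under 0.05): Fcrls, Slco2b1, Rnase4, Cbr2, Entpd1, Mrc1, Folr2 and Maf. In wild type, 6 of 10 were called lower: Slco2b1, Fcrls, Cbr2, Entpd1, Mrc1 and Maf. Of all 12194 genes tested, 2.01% were called lower in the knockout and 0.369% in wild type. The 10 genes were chosen with earlier results of these data known, so these shares describe the set and are no test of it. None of the 10 was called higher, where 3.09% of all genes were in the knockout and 0.812% in wild type. The median log2 difference of the 10 genes was -3.84 in the knockout, against -0.10 over all genes tested, and -3.92 in wild type, against -0.12 over all genes tested. In the knockout, both TNF libraries lay below both day-0 libraries for all 10 genes, which was so for 25.2% of all genes. In wild type this held for 8 of the 10, against 22.6% of all genes, and Siglec1 and Adgre1 overlapped. In these pooled cells, fewer cells of a type and less RNA per cell cannot be told apart.

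With the replicate number as a block, 10 of 10 were called lower in the knockout, where 13.7% of all genes were, and 8 of 10 in wild type, where 4.71% of all genes were. The calls without the block rested on single libraries: the knockout count was 3 without knockout TNF library 2 or without knockout day-0 library 2 and 4 without knockout day-0 library 1, and the wild-type count was 0 without either wild-type day-0 library, 1 without wild-type TNF library 2 and 2 without wild-type TNF library 1. The share of all genes called lower moved with them, between 0.0578% and 0.581% in the knockout and between 0% and 0.0496% in wild type over the omissions of each library of the contrast. With the block, leaving out a library of the contrast left 7 to 10 calls in the knockout, where 3.05% to 10.9% of all genes were called lower, and 5 to 7 in wild type, where 0.554% to 5.08% were.

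**Figure D1:**
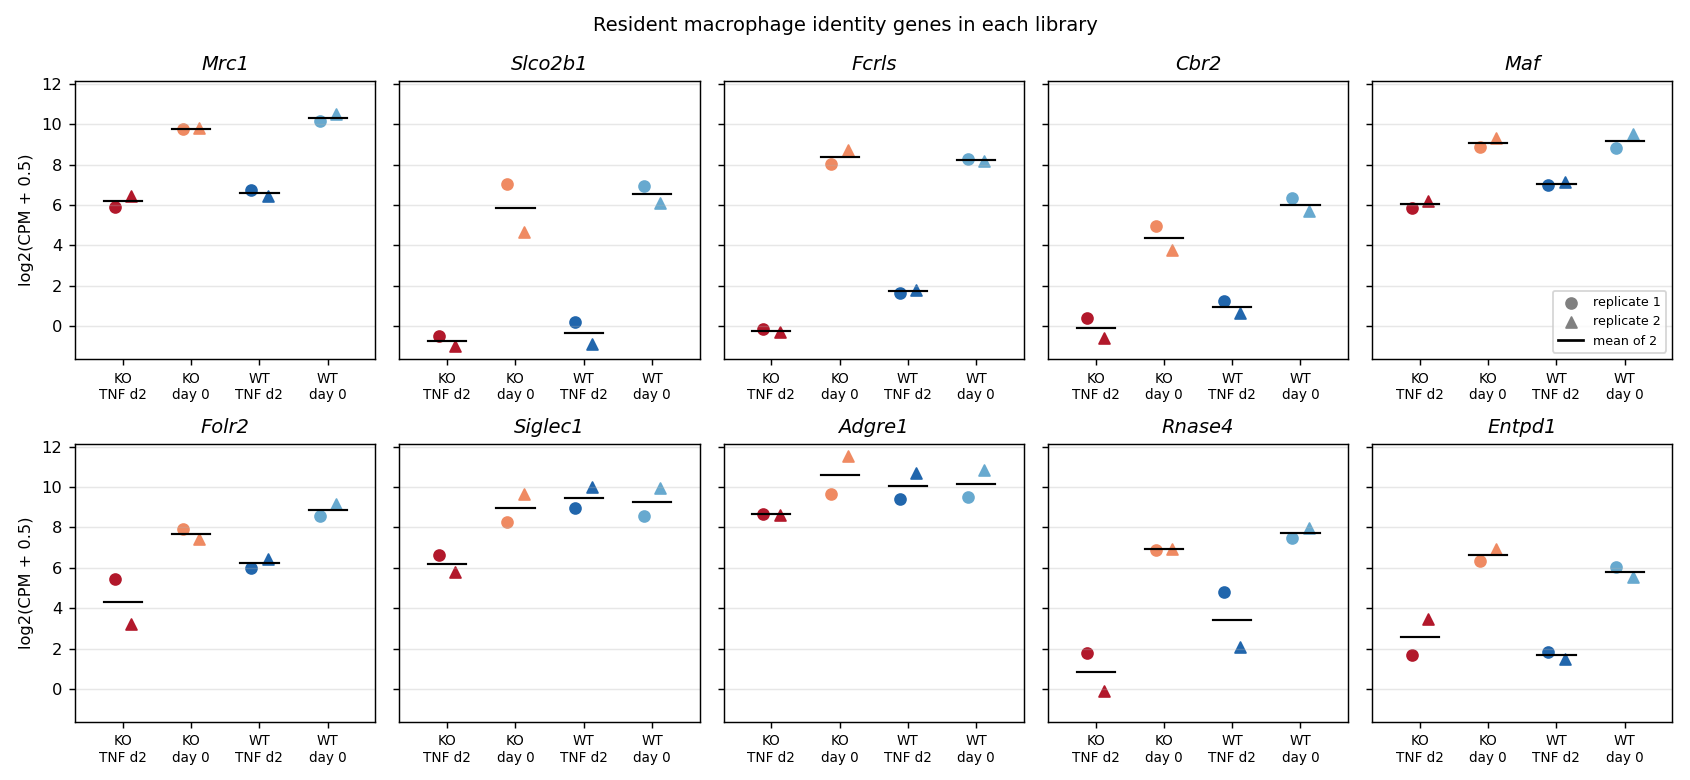
Expression of the 10 resident macrophage genes as log2(CPM + 0.5) in each of the 8 libraries (circles, library 1; triangles, library 2; line, mean of the 2). Slco2b1, Fcrls and Cbr2 lie below 3 CPM in all 4 TNF libraries, while Siglec1 and Adgre1 lie low in the 2 knockout TNF libraries alone.

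Among the uptake receptors, Mrc1 encodes the mannose receptor, which takes up glycoproteins with mannose ends (GRCm38 chr2:14229392-14332057). Mrc1 had 59.7 and 88.1 CPM in knockout TNF libraries, against 881 and 892 CPM in knockout day-0 libraries. In wild type Mrc1 had 106 and 87.2 CPM in TNF libraries, against 1137 and 1457 CPM in day-0 libraries. Each TNF library was thus below each day-0 library by roughly an order of magnitude. The log2 difference of Mrc1 was -3.60 ± 0.28 in the knockout (limma adjusted p = 0.00457) and -3.74 ± 0.28 in wild type (limma adjusted p = 0.010), where ± is the moderated standard error here and below.

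Fcrls is a scavenger receptor of the Fc receptor-like family, best known as a marker of mouse microglia (chr3:87250758-87263738). It had 0.406 and 0.316 CPM, or 4 and 6 reads, in knockout TNF libraries, against 264 and 429 CPM in knockout day-0 libraries. In wild type Fcrls had 2.64 and 2.97 CPM, or 94 and 70 reads, in TNF libraries, against 315 and 288 CPM in day-0 libraries. The pairs of libraries with the same number gave levels 651- and 1357-fold lower after TNF in the knockout, and 120- and 97.0-fold lower in wild type. The log2 difference was -8.62 ± 0.32 in the knockout (limma adjusted p = 3.22e-04), the lowest of all 12194 genes tested in this fit, and -6.52 ± 0.32 in wild type (limma adjusted p = 0.00198), the lowest but one.

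Folr2 encodes folate receptor beta, a folate uptake protein of resident macrophages (chr7:101839988-101857194). It had 42.6 and 8.65 CPM in knockout TNF libraries, against 242 and 172 CPM in knockout day-0 libraries. In wild type Folr2 had 63.8 and 86.4 CPM in TNF libraries, against 381 and 572 CPM in day-0 libraries. The groups did not overlap in either genotype, and knockout TNF library 2 held 0.203 times the level of library 1. The log2 difference was -3.36 ± 0.69 in the knockout (limma adjusted p = 0.0454), a call that was lost without the filter on low values (adjusted p = 0.0634) and in edgeR (adjusted p = 0.0698). In wild type Folr2 was -2.65 ± 0.69 (limma adjusted p = 0.164, and 0.050 with the replicate block, just under the threshold).

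Folr2, Slco2b1 and Maf overlap antisense genes in the annotation, and without a stated strand of counting, reads of the partners cannot be told apart. Slco2b1 encodes an organic anion transporter of the solute carrier family (chr7:99657804-99711340). It had 0.203 and 0 CPM in knockout TNF libraries, against 133 and 24.8 CPM in knockout day-0 libraries. In wild type Slco2b1 had 0.645 and 0.0424 CPM in TNF libraries, against 123 and 69.1 CPM in day-0 libraries. The knockout TNF libraries together held 2 reads and the knockout day-0 libraries 4277, a ratio of 8.19e-04 after correction for depth (95% counting interval 9.92e-05 to 0.00296, which covers counting error only). The wild-type TNF libraries held 24 reads and the day-0 libraries 5243, a ratio of 0.0042 (95% counting interval 0.00269 to 0.00626). The fitted log2 difference, which depends on the pseudocount at such levels, was -6.61 ± 0.83 in the knockout (limma adjusted p = 0.0111) and -6.88 ± 0.83 in wild type (limma adjusted p = 0.0232; 0.0763 in edgeR).

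Among the enzymes, Cbr2 encodes a carbonyl reductase (chr11:120729489-120732114). It had 0.812 and 0.158 CPM in knockout TNF libraries, against 30.9 and 13.3 CPM in knockout day-0 libraries, and fell by 4.49 ± 0.58 on the log2 scale (limma adjusted p = 0.012). In wild type Cbr2 had 1.91 and 1.06 CPM in TNF libraries, against 79.9 and 52.2 CPM in day-0 libraries, and fell by 5.07 ± 0.58 (limma adjusted p = 0.0211). By ratio of the same-numbered libraries, Cbr2 was 38.1- and 84.2-fold lower after TNF in the knockout and 41.9- and 49.2-fold lower in wild type.

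Entpd1 encodes the ectonucleotidase CD39, which breaks down extracellular ATP and ADP (chr19:40612366-40741602). It had 2.74 and 10.4 CPM in knockout TNF libraries, against 81.7 and 121 CPM in knockout day-0 libraries, and fell by 4.08 ± 0.59 on the log2 scale (limma adjusted p = 0.0177). In wild type Entpd1 had 3.03 and 2.33 CPM in TNF libraries, against 64.4 and 45.4 CPM in day-0 libraries, and fell by 4.11 ± 0.59 (limma adjusted p = 0.0379). The wild-type call of Entpd1 was lost without the filter on low values (adjusted p = 0.0624), with TMM scaling (adjusted p = 0.0503) and in edgeR (adjusted p = 0.0763).

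Rnase4 encodes a secreted ribonuclease and overlaps the angiogenin gene Ang on the same strand (chr14:51091077-51106151), so reads of shared exons may have been split or dropped in a way that the sources used here do not state. It had 2.94 and 0.422 CPM in knockout TNF libraries, against 116 and 123 CPM in knockout day-0 libraries. In wild type Rnase4 had 27.5 and 3.65 CPM in TNF libraries, against 178 and 249 CPM in day-0 libraries. The TNF libraries were spread widely: the same-numbered libraries gave levels 39.5- and 292-fold lower after TNF in the knockout, and 6.49- and 68.4-fold lower in wild type. The log2 difference was -6.08 ± 0.96 in the knockout (limma adjusted p = 0.0226) and -4.29 ± 0.96 in wild type (limma adjusted p = 0.111; 0.0208 with the replicate block). Ang had 0 reads in knockout TNF libraries, against 101 and 67 reads in knockout day-0 libraries, and was at least 32.0-fold lower by the floor of 3 reads over the group. In wild type Ang had 30 and 0 reads in TNF libraries, against 169 and 138 reads in day-0 libraries.

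Maf encodes the transcription factor c-Maf, which restrains the self-renewal of mature macrophages (chr8:115682942-115707794). It had 58.2 and 72.3 CPM in knockout TNF libraries, against 471 and 632 CPM in knockout day-0 libraries. In wild type Maf had 127 and 139 CPM in TNF libraries, against 457 and 724 CPM in day-0 libraries. The libraries of each group lay close together, and no groups overlapped between TNF and day 0. The log2 difference of Maf was -3.06 ± 0.31 in the knockout (limma adjusted p = 0.00706) and -2.11 ± 0.31 in wild type (limma adjusted p = 0.0386). The wild-type call of Maf was lost without the filter on low values (adjusted p = 0.0616), with TMM scaling (adjusted p = 0.0787) and in edgeR (adjusted p = 0.0997).

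The pair of surface markers was called in neither genotype by limma or edgeR without the block, while DESeq2 called Siglec1 lower in the knockout (log2 difference -2.83, adjusted p = 0.002), as it did 5.72% of all genes. Siglec1 encodes sialoadhesin, the sialic acid-binding lectin CD169 (chr2:131069220-131086765). It had 98.3 and 54.6 CPM in knockout TNF libraries, against 312 and 796 CPM in knockout day-0 libraries. In wild type Siglec1 had 496 and 1021 CPM in TNF libraries, against 380 and 1003 CPM in day-0 libraries. The knockout TNF libraries were the lowest of the 8, and the wild-type groups overlapped. The log2 difference was -2.76 ± 0.68 in the knockout (limma adjusted p = 0.0745; 0.0133 with the replicate block) and 0.20 ± 0.68 in wild type (limma adjusted p = 0.99; 0.835 with the block).

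Adgre1 encodes the adhesion receptor F4/80, the usual surface marker of mouse macrophages (chr17:57358691-57483527). It had 408 and 397 CPM in knockout TNF libraries, against 810 and 2939 CPM in knockout day-0 libraries. In wild type Adgre1 had 689 and 1665 CPM in TNF libraries, against 721 and 1840 CPM in day-0 libraries. The knockout TNF libraries were again the lowest of the 8, and the wild-type groups overlapped. The log2 difference was -1.94 ± 0.76 in the knockout (limma adjusted p = 0.226; 0.0204 with the replicate block). In wild type Adgre1 was -0.11 ± 0.76 (limma adjusted p = 1.0), a value whose sign turned with TMM scaling (0.00306), median-ratio scaling (0.00794) and in the count tests.

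Siglec1 and Adgre1 were higher in library 2 than in library 1 in 3 of the 4 groups. Siglec1 was 2.55-, 2.06- and 2.64-fold higher in library 2 than in library 1 in the knockout day-0, wild-type TNF and wild-type day-0 groups, and Adgre1 was 3.63-, 2.42- and 2.55-fold higher. In the knockout TNF group the same ratio was 0.555 for Siglec1 and 0.974 for Adgre1. For Maf the ratio lay between 1.09 and 1.58 in the 4 groups.

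**Figure D2:**
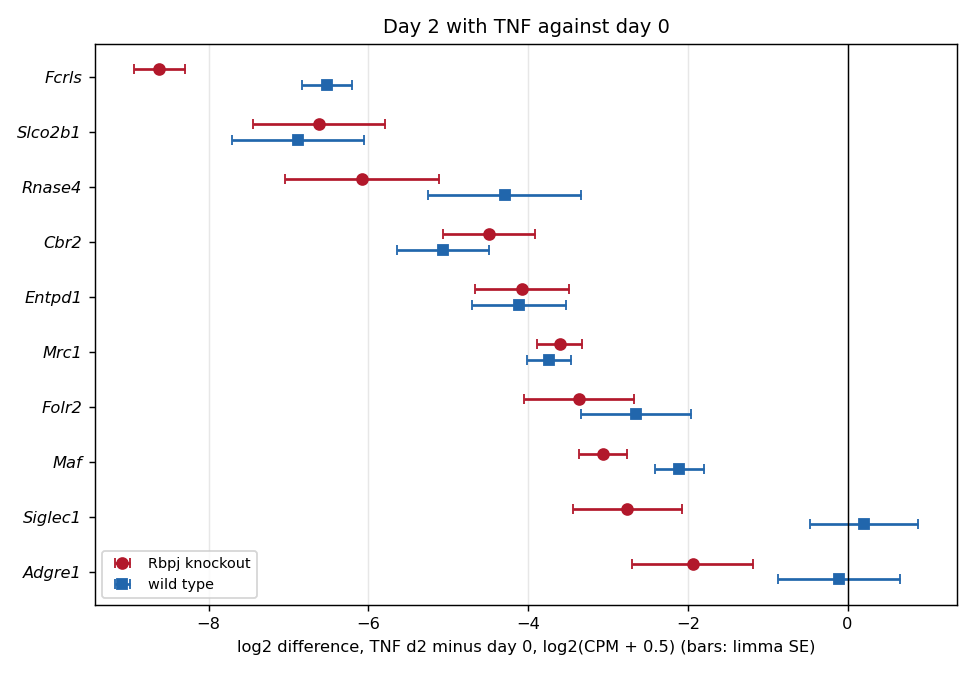
Log2 difference between day 2 with TNF and day 0 for each gene in the knockout (circles) and in wild type (squares), on the log2(CPM + 0.5) scale, with limma standard errors from 2 libraries per group. For Mrc1, Entpd1, Cbr2, Slco2b1 and Folr2 the 2 genotypes differ by less than the standard error of that difference. Siglec1 and Adgre1 lie near 0 in wild type and at -2.76 and -1.94 in the knockout.

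Knockout and wild type were next compared after TNF. The knockout TNF libraries were lower than the wild-type TNF libraries for 7 of the 10 genes without overlap: Siglec1, Rnase4, Fcrls, Folr2, Adgre1, Cbr2 and Maf. A separation in that direction was found for 16.1% of all genes tested. In limma without the block, 0 of 10 were called lower, as were 0% of all genes, and 5 of the 10 had an unadjusted p under 0.05, against 11.3% of all genes. With the replicate block, 4 of 10 were called lower, where 3.75% of all genes were: Siglec1, Fcrls, Maf and Cbr2. edgeR with the block called 3 lower (Fcrls, Maf and Siglec1), where 2.86% of all genes were, and DESeq2 without it 3 (Fcrls, Siglec1 and Rnase4), where 1.79% were. edgeR without the block called 0 lower, as it did 0% of all genes, and gave 6 with an unadjusted p under 0.05, against 11.3% of all genes.

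Siglec1 had the largest difference on the log2(CPM + 0.5) scale, at 98.3 and 54.6 CPM in knockout TNF libraries against 496 and 1021 CPM in wild-type TNF libraries. Its log2 difference was -3.27 ± 0.68 (limma adjusted p = 0.176; 0.024 with the replicate block), and the same-numbered libraries were 5.05- and 18.7-fold lower in the knockout. By the ratio of summed reads after correction for depth, Rnase4 (0.0713) was lower than Siglec1 (0.0986). Between same-numbered libraries Fcrls was 6.50- and 9.38-fold lower in the knockout, with a log2 difference of -1.94 ± 0.32 (limma adjusted p = 0.132, and 0.0191 with the block). The ratio of its summed reads, 10 against 164, was 0.125 (95% counting interval 0.059 to 0.236). Maf was 2.18- and 1.92-fold lower, with a log2 difference of -1.03 ± 0.31 (limma adjusted p = 0.269; 0.0257 with the block). Cbr2 was 2.35- and 6.70-fold lower, from 11 against 93 reads, with a log2 difference of -1.06 ± 0.58 (limma adjusted p = 0.604; 0.0483 with the block).

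Rnase4, Folr2 and Adgre1 did not overlap between the genotypes after TNF but missed the threshold in limma with and without the block. Their log2 differences were -2.60 ± 0.96 for Rnase4, -1.91 ± 0.69 for Folr2 and -1.41 ± 0.76 for Adgre1, with adjusted p of 0.0848, 0.114 and 0.0901 with the block. Mrc1 and Slco2b1 overlapped, at -0.40 ± 0.28 and -0.41 ± 0.83, where Slco2b1 rested on 2 reads in the knockout and 24 in wild type. Entpd1 was the single gene with a higher mean in knockout TNF libraries, at 2.74 and 10.4 CPM against 3.03 and 2.33 CPM, and the groups overlapped (log2 difference 0.91 ± 0.59, limma adjusted p = 0.716). The 4 calls with the block rested on single libraries: they numbered 0 without knockout TNF library 2 or wild-type TNF library 2, 1 without wild-type TNF library 1, 2 without either knockout day-0 library, 3 without either wild-type day-0 library and 5 without knockout TNF library 1, where Entpd1 was also called higher in the knockout (adjusted p = 0.0431). Over the omissions of each of the 8 libraries, 0% to 3.75% of all genes were called lower. Summed over the 10 genes, expression was 674 and 632 CPM in knockout TNF libraries, against 1518 and 3008 CPM in wild-type TNF libraries.

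Before TNF, no difference between the genotypes passed the test for any of the 10 genes. Their log2 differences, knockout minus wild type, lay between -1.64 ± 0.58 for Cbr2 and 0.88 ± 0.59 for Entpd1. The fit without the block missed the targeted gene Rbpj too, at -2.60 ± 0.27 (limma adjusted p = 0.238; 0.0264 with the block). After TNF Rbpj was at -2.96 ± 0.27 (limma adjusted p = 0.0735, and 0.00339 with the block). A missing call is thus no evidence that the genotypes were alike. In limma 0 of 10 were called, as were 0% of all genes, and 1 of the 10 had an unadjusted p under 0.05, against 1.34% of all genes. Limma with the block (0.0082% of all genes), edgeR without the block (0%) and with it (0.0082%) and DESeq2 (0.197%) also called 0 of the 10. Cbr2 had 30.9 and 13.3 CPM in knockout day-0 libraries, against 79.9 and 52.2 CPM in wild-type day-0 libraries (limma adjusted p = 1.0). Cbr2, Folr2, Mrc1 and Rnase4 were lower in the knockout without overlap, which 8.66% of all genes were, and Entpd1 was higher without overlap, which 9.86% were. Folr2 had 242 and 172 CPM in knockout day-0 libraries, against 381 and 572 CPM in wild-type day-0 libraries. Fcrls, Maf, Siglec1, Adgre1 and Slco2b1 overlapped, with log2 differences of 0.16 ± 0.32, -0.08 ± 0.31, -0.31 ± 0.68, 0.42 ± 0.76 and -0.68 ± 0.83.

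**Figure D3:**
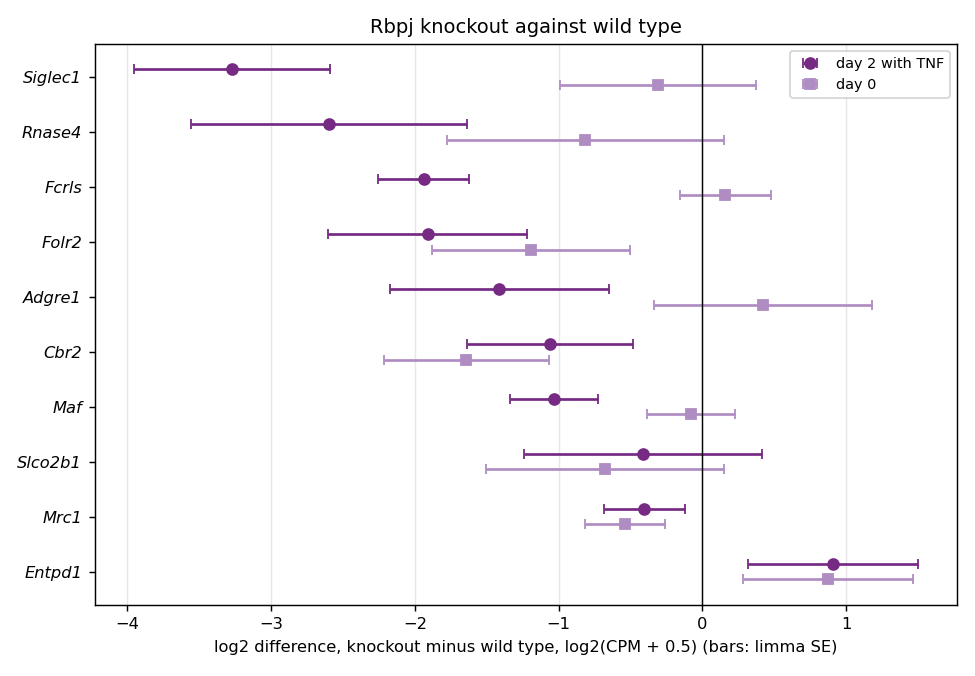
Log2 difference between knockout and wild type for each gene after 2 days with TNF (circles) and at day 0 (squares), on the log2(CPM + 0.5) scale, with limma standard errors from 2 libraries per group. Siglec1 lies at -3.27 after TNF and at -0.31 at day 0. For Mrc1, Slco2b1, Cbr2, Entpd1 and Folr2 the 2 times differ by less than the standard error of that difference.

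Whether the TNF response itself differed between the genotypes was tested as the difference of the 2 responses. In limma 0 of 10 passed, as did 0% of all genes, and 2 of the 10, Fcrls and Siglec1, had an unadjusted p under 0.05, against 5.65% of all genes. With the replicate block 0 passed, and 4 had an unadjusted p under 0.05, against 18% of all genes. edgeR called 0, as it did 0% of all genes, and DESeq2 called 1, Fcrls (adjusted p = 0.00978), where 0.648% of all genes were called. The response in the knockout minus that in wild type was -2.96 ± 0.96 for Siglec1 (limma adjusted p = 0.818; 0.137 with the block) and -2.10 ± 0.45 for Fcrls (limma adjusted p = 0.641; 0.104 with the block). It was -1.83 ± 1.08 for Adgre1, -1.78 ± 1.36 for Rnase4, -0.95 ± 0.43 for Maf and -0.72 ± 0.98 for Folr2. For Mrc1, Entpd1, Slco2b1 and Cbr2 it was 0.13 ± 0.40, 0.03 ± 0.84, 0.27 ± 1.17 and 0.58 ± 0.81. The sign for Slco2b1, Cbr2 and Entpd1 turned with the pseudocount or the tool. Without knockout TNF library 1, the fit with the block called 3 of the 10, Siglec1, Adgre1 and Fcrls, where 2.67% of all genes were called.

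The levels of the genes were ordered per kilobase of exon. Adgre1 was highest in each group, at 124 ± 2.36 CPM per kb in knockout TNF libraries, 579 ± 465 in knockout day-0 libraries, 364 ± 213 in wild-type TNF libraries and 395 ± 244 in wild-type day-0 libraries (SD, n = 2 each). In knockout TNF libraries, Folr2, Mrc1, Siglec1 and Maf followed at 16.6, 11.6, 10.7 and 7.92 CPM per kb, each overlapping the next, and the other 5 genes lay below 2 CPM per kb. In knockout day-0 libraries, Fcrls (149), Mrc1 (139), Folr2 (134), Siglec1 (77.5), Rnase4 (73.1) and Maf (66.9) followed Adgre1, each overlapping the next except Folr2 and Siglec1, whose ranges were barely apart. In wild-type TNF libraries, Siglec1 (106) and Folr2 (48.6) followed Adgre1 and did not overlap, ahead of Maf (16.2) and Mrc1 (15.2), which did. In wild-type day-0 libraries, Folr2 (308), Mrc1 (204), Rnase4 (131) and Fcrls (129) followed, and Folr2 overlapped Adgre1. Slco2b1 was lowest in each group except wild type at day 0, where Entpd1 was, at 9.84 ± 2.41 CPM per kb (SD, n = 2).

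Across the 8 libraries, the log2(CPM + 0.5) values of all 45 pairs of the genes were positively correlated, with a median Pearson r of 0.875; this describes 8 libraries in 4 groups, and the groups share the TNF difference described above. Maf followed the mean of the other 9 most closely (r = 0.990), ahead of Fcrls (0.983) and Mrc1 (0.956). Siglec1 (0.628) and Adgre1 (0.627) followed it least, and the lowest pair was Siglec1 with Entpd1 (0.254). Of 9677 other genes with a mean of at least 5 CPM, the 8 whose levels were most like the mean of the set were Bod1l, Wbp5, Gab3, Psd3, Slc9a9, Frmd4b, Nlrc3 and Wfdc17 (r from 0.991 to 0.993 over 8 libraries). Gab3, a docking adaptor known from M-CSF receptor signalling, had 1.32 and 1.32 CPM in knockout TNF libraries, against 11.6 and 14.5 CPM in knockout day-0 libraries, and 3.98 and 4.03 CPM in wild-type TNF libraries, against 11.3 and 15.1 CPM in wild-type day-0 libraries. The log2 difference of Gab3 after TNF was -2.89 in the knockout and -1.59 in wild type. Because these 8 genes were picked for following the set over the same libraries, their fall after TNF is no separate support.

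A list of 44 symbols of other resident macrophage genes, such as complement C1q and scavenger receptors, was followed beside the set, and 37 passed the filter. Like the set and the lists below, it was chosen with earlier results of these data known, so its calls are no separate support. In the knockout 10 of the 37 were called lower after TNF and 0 higher (23 and 0 with the replicate block), with a median log2 difference of -2.09. Of all 12194 genes tested, 245 were called lower and 377 higher there (1676 and 1486 with the block). In wild type 3 were called lower and 0 higher (14 lower and 1 higher by the blocked fit), and the median was -1.48. Over all genes the wild-type counts were 45 lower and 99 higher (574 and 676 with the block). In the knockout the high-affinity IgG receptor gene Fcgr1 had 5.17 and 5.96 CPM in TNF libraries, against 167 and 440 CPM in day-0 libraries (log2 difference -5.49 ± 0.73, limma adjusted p = 0.0135). The lipid carrier Apoe differed by -3.86 and the complement genes C1qc, C1qb and C1qa by -3.46, -3.22 and -3.08 in the knockout (limma adjusted p from 0.0126 to 0.0482). In wild type Fcgr1, Apoe, C1qc, C1qb and C1qa differed by -3.23, -2.96, -2.16, -2.07 and -1.71. They were called there with the block alone (limma adjusted p from 0.054 to 0.267, and from 0.00446 to 0.0341 with it). The lysophosphatidylserine receptor gene Gpr34 (-3.57), the ubiquitin ligase gene Wwp1 (-2.16) and the selenoprotein gene Sepp1 (-2.01) were called lower in wild type (limma adjusted p from 0.0256 to 0.0363). Gpr34, Wwp1 and Sepp1 were also called lower in the knockout, at -2.82, -2.16 and -3.05 (limma adjusted p from 0.00513 to 0.0294). The scavenger receptor gene Marco had the opposite sign, at 680 and 395 CPM in knockout TNF libraries against 10.5 and 140 CPM in knockout day-0 libraries, and at 2093 and 409 CPM in wild-type TNF libraries against 19.6 and 2.15 CPM in wild-type day-0 libraries (wild-type log2 difference 6.99 ± 1.48, limma adjusted p = 0.0961, and 0.0327 with the block). After TNF, 0 of the 37 were called between knockout and wild type without the block, and 5 were called lower in the knockout with it. These were Pltp, Fcgr1, Igf1, Stab1 and Sepp1, with log2 differences of -2.39, -1.97, -1.89, -1.60 and -1.40. Over all 12194 genes, 1 was called without the block, and 457 were called lower and 674 higher with it.

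**Figure D4:**
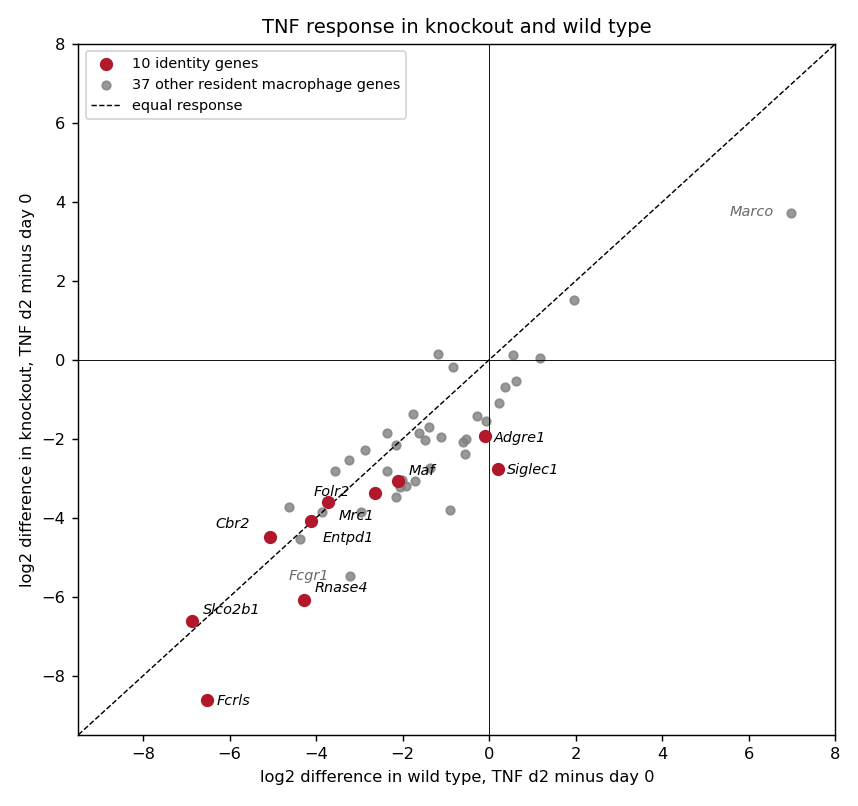
Log2 difference between day 2 with TNF and day 0 in the knockout (y axis) and in wild type (x axis) for the 10 resident macrophage genes (red) and the 37 other resident macrophage genes that passed the filter (grey), on the log2(CPM + 0.5) scale. Siglec1, Fcrls, Adgre1, Rnase4, Maf and Folr2 lie below the line of equal response, and Marco lies at 6.99 in wild type.

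Of 44 symbols of relatives of the genes by family, some of them an old and a new name of the same gene, 25 passed the filter. In the knockout after TNF 1, Ang, was called lower and 0 higher (6 and 5 with the replicate block). In wild type 0 were called without the block, and 1 lower and 4 higher with it. The blocked fit called 4 lower and 1 higher in knockout against wild type after TNF. Over all 12194 genes, 245 were called lower and 377 higher in the knockout without the block, and 45 and 99 in wild type. With the block these counts were 1676 and 1486 in the knockout and 574 and 676 in wild type. For knockout against wild type after TNF they were 457 and 674 with the block. The F4/80 relative Adgre4 had 79.0 and 135 CPM in knockout TNF libraries against 0.893 and 27.0 CPM in knockout day-0 libraries, and 111 and 284 CPM in wild-type TNF libraries against 0.401 and 1.71 CPM in wild-type day-0 libraries. Its log2 difference in wild type was 6.98 ± 1.33 (limma adjusted p = 0.0753; 0.00527 with the block), beside -0.11 for Adgre1. Cd33, a relative of Siglec1, had 14.1 and 16.3 CPM in knockout TNF libraries, against 61.8 and 52.2 CPM in wild-type TNF libraries (log2 difference -1.87 ± 0.46, limma adjusted p = 0.205; 0.0331 with the block).

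Of 31 macrophage transcription factors, 29 passed the filter. In the knockout after TNF 4 were called lower and 2 higher (10 and 6 with the replicate block). Of all 12194 genes tested, 245 were called lower and 377 higher there (1676 and 1486 with the block). In wild type 3 were called lower and 0 higher (4 and 5 with the block), where 45 and 99 of all genes were (574 and 676 with the block). The inhibitors of basic helix-loop-helix factors Id1 and Id3 and the nuclear receptor gene Pparg fell in both genotypes. Id1 differed by -5.29 in the knockout and -4.32 in wild type, Pparg by -4.38 and -3.98, and Id3 by -3.16 and -4.20 (limma adjusted p from 0.00513 to 0.0202). In the knockout the nuclear receptor partner Rxra also fell by 1.43, and the osteoclast factor Nfatc1 (3.69) and the basic helix-loop-helix factor Bhlhe40 (3.31) rose. Spi1, which encodes PU.1, had a log2 difference of 0.58 ± 0.57 in the knockout and 0.40 ± 0.57 in wild type (limma adjusted p = 0.678 and 0.949).

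Other cell markers moved with the TNF response of these genes. The 10 osteoclast markers summed to 18804 and 45864 CPM in knockout TNF libraries against 151 and 248 CPM in knockout day-0 libraries, and to 6579 and 4965 CPM in wild-type TNF libraries against 144 and 220 CPM in wild-type day-0 libraries. Of these 10, 9 were called higher in the knockout and 5 in wild type, where 3.09% and 0.812% of all genes were. Between the genotypes after TNF 0 of the 10 were called, as was 1 of all 12194 genes. With the replicate block 10 were called higher in the knockout after TNF, as were 674 of all genes. The 11 neutrophil markers in the table summed to 63.4 and 77.8 CPM in knockout TNF libraries against 297 and 1109 CPM in knockout day-0 libraries, and to 119 and 230 CPM in wild-type TNF libraries against 189 and 934 CPM in wild-type day-0 libraries. The 8 monocyte markers summed to 106 and 94.7 CPM in knockout TNF libraries against 308 and 574 CPM in knockout day-0 libraries, and to 145 and 124 CPM in wild-type TNF libraries against 241 and 471 CPM in wild-type day-0 libraries. The 8 macrophage markers overlapped between TNF and day 0 in the knockout and lay higher after TNF in wild type: they summed to 5450 and 7170 CPM in knockout TNF libraries against 5690 and 8013 CPM in knockout day-0 libraries, and to 7480 and 7752 CPM in wild-type TNF libraries against 5786 and 6485 CPM in wild-type day-0 libraries. Of these 8, Fcgr3 was called lower in the knockout, where 2.01% of all genes were, and 0 in wild type, where 0.369% were. With the replicate block 1 of the 8 was called lower and 1 higher in wild type, as were 574 and 676 of all genes. Between the genotypes after TNF 0 of the 8 were called without the block. With it 3 of the 8 were called lower in the knockout, as were 457 of all genes. The other lists summed to 173 to 874 CPM (dendritic cell), 1.09 to 10.4 CPM (B lymphoid), 1.94 to 26.5 CPM (T and NK) and 0.645 to 12.9 CPM (mast and basophil) over the 8 libraries. The part of these cell markers in the results above was not tested.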

How the data were processed

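RNA of 8 libraries (4 groups, 2 each) was poly-A selected, per the labels' protocols. The values deposited by the authors are CPM, in 1 table. The submitters' processing notes name fastp, HISAT2, HTSeq, edgeR and mm10; their roles, settings and annotation are not given in the sources used here. All CPM were whole multiples of 1 read (100% within 0.01), so reads and depths (9855859 to 35653203) were recovered.

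The 10 genes and all lists were chosen with earlier results of these data known. The test was limma 3.58.1 (R 4.3.3; lmFit, then eBayes with a trend; 2-sided) of log2(CPM + 0.5) values, for the 12194 genes that reached 1 CPM in 2 or more libraries, in 1 fit of all libraries by group (4 residual degrees of freedom), with Benjamini-Hochberg adjustment over all genes of each of 5 contrasts and a threshold of 0.05. A fold change on this scale understates that of low genes. Same-numbered libraries deviated together in every pair of groups (r from 0.577 to 0.805 across genes), so the numbers were taken as pairs, and a fit with the number as a block was made. Whether replicates are separate animals is not stated, so a p-value covers only the variation among these libraries; replicates differed by more than counting noise. Alternatives were other pseudocounts, filters and scalings, edgeR 4.0.16 (497 genes called after TNF in the knockout, 60 in wild type) and DESeq2 1.42.0 on recovered reads, the libraries of a contrast alone, and leaving out each library; a group left with 1 library was assumed to vary like the others.

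Beside the 10 genes and Rbpj, the text names the 8 genes most correlated with the set. Of each further list it names up to 5 called genes with the largest absolute log2 difference and a mean of at least 2 CPM. Rxra is named beyond that limit, because all transcription factors called in the knockout are given. Marco, Adgre4, Cd33, Spi1, Fcgr3 and Gab3 were singled out after their values were seen. Positions are from GENCODE M21 (GRCm38), as are exon lengths, the union of annotated exons.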

Additional observations from a re-analysis of the deposited data

Results flagged for a closer look

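The ratio of TNF to day 0 for Siglec1 lay on opposite sides of 1 in the 2 genotypes in each pair of same-numbered libraries, at 0.315 and 0.0686 in the knockout and 1.31 and 1.02 in wild type. The wild-type groups overlapped, and the wild-type log2 difference of 0.20 ± 0.68 did not pass the test (limma adjusted p = 0.99). The log2 response in the knockout minus that in wild type was -2.96 ± 0.96, which did not pass the test of the difference (limma adjusted p = 0.818, and 0.137 with the replicate block).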

How the results depend on the processing

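With 2 libraries per group, the calls depended on single libraries more than on scaling. Leaving out each library in turn, with and without the replicate block, gave 3 to 10 members called in the knockout after TNF (8 with all libraries), 0 to 8 in wild type (6), 0 to 6 between knockout and wild type after TNF (0), and 0 to 3 for the difference of the responses (0); at day 0 the count was 0 throughout. The share of all genes called moved with the library left out as well, as given above. The knockout count was 3 with the libraries of the contrast alone, where 16 of all 12194 genes were called lower. The wild-type count was 3 in edgeR, where 15 of all 12194 genes were called lower. After TNF, knockout against wild type gave 4 lower with the replicate block (3.75% of all genes), 3 in edgeR with the block (2.86%) and 3 in DESeq2 (1.79%). The difference of the responses gave 1 in DESeq2 (0.648% of all genes). The cause was not tested, except that fewer libraries leave fewer residual degrees of freedom. In the knockout no member's TNF difference turned its sign under any alternative run. TMM and median-ratio scaling moved the median of all genes in the wild-type TNF contrast from -0.12 to -0.01. Adgre1 in wild type then turned to 0.00306 with TMM, 0.00794 with median-ratio scaling, 0.053 in edgeR, 0.016 in edgeR with the block and 0.0621 in DESeq2. The difference of responses turned for Slco2b1 (-0.22 with pseudocount 0.1, -1.87 in edgeR, -1.24 in edgeR with the block, -1.77 in DESeq2), Cbr2 (-0.21, -0.16 with the block and -0.23 in DESeq2) and Entpd1 (-0.037 with pseudocount 1). Over the left-out libraries, values that turned sign ran from -0.78 to 0.57 for Adgre1 and -0.49 to 0.90 for Siglec1 in wild type after TNF. In knockout against wild type at day 0 they ran from -0.51 to 1.35 (Adgre1), -0.21 to 0.53 (Fcrls), -0.41 to 0.25 (Maf), -1.82 to 0.19 (Rnase4), -1.01 to 0.39 (Siglec1) and -1.88 to 0.52 (Slco2b1), and after TNF from -0.0063 to 1.83 (Entpd1) and -0.95 to 0.13 (Slco2b1). For the difference of responses they ran from -0.012 to 1.17 (Cbr2), -0.88 to 0.95 (Entpd1), -1.93 to 0.49 (Folr2), -0.16 to 0.43 (Mrc1) and -0.93 to 1.46 (Slco2b1). Under these alternatives none of the sign changes was of a called value. Depth limits Slco2b1, Fcrls and Cbr2 after TNF in the knockout, which rested on 2, 10 and 11 reads.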
